A study of Triticum aestivum with 6 samples.

Results

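The genes described here were found by their description in the deposited wheat gene table. It names abscisic acid or gibberellin, or a protein family with members known to make, sense or answer either hormone. The descriptions were searched for abscisic, 9-cis-epoxycarotenoid, protein phosphatase 2C, PYL, SAPK, gibberellin, GID1, DELLA and GASA, in any case. Of 107891 rows, 261 matched. They comprise 192 genes filed under abscisic acid, 65 under gibberellin and 4 that matched by letters only, since isopropylmalate synthase holds the letters pyl. Those 4 encode an enzyme of leucine synthesis and were kept in the counts below as the search gave them. Kept as well were 122 protein phosphatase 2C genes, among the 192, that the table does not tie to abscisic acid.

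The samples were grains of a white-grained wheat and of a purple-grained wheat (Triticum aestivum), collected 30 days after flowering, with 3 RNA sequencing libraries of each. Both grew in pots in a climate chamber, with no treatment named. The labels give the tissue as grain, while the extraction protocol speaks of stems and buds, and they do not say whether libraries came from separate plants. Grain colour and the rest of the genetic background differ together between these wheats, and their effects cannot be told apart.

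Abscisic acid is cut from carotenoids by 9-cis-epoxycarotenoid dioxygenase (NCED) and inactivated by abscisic acid 8′-hydroxylase. Its receptors (PYL) hold back phosphatases of the protein phosphatase 2C (PP2C) family, which frees SnRK2 kinases, called SAPK in rice, to act on bZIP factors such as ABI5. Bioactive gibberellin is completed by gibberellin 20-oxidases and 3-oxidases and inactivated by 2-oxidases, and its receptor GID1 leads DELLA repressors to degradation. In cereal grain, abscisic acid is known for maturation and dormancy, and gibberellin for starch breakdown at germination.

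Libraries held between 78660932 and 102868886 counts. Among the white libraries, replicate 1 correlated at 0.913 and 0.898 with the others, against 0.948 between those. Purple replicate 3 likewise stood apart from the other purple libraries. Its correlations with the other purple libraries were 0.885 and 0.892, against 0.945 between those, and storage protein genes of the starchy endosperm made 21.3% of its summed FPKM (fragments per kilobase of gene and per sequencing depth, as the authors computed it) where purple replicates 1 and 2 had 8.23% and 9.0% and the white libraries 10.5% to 19.4%. The share of 49 listed embryo and aleurone genes was 0.113% to 0.174% in the white libraries and 0.170% in purple replicate 3, but 0.383% and 0.579% in the other purple libraries. The share of 74 listed green tissue genes was 0.0307% to 0.0364% in the white libraries and 0.0262% in purple replicate 3, but 0.00544% and 0.00370% in the other purple libraries. In the embryo and aleurone list 5 genes had no count anywhere and 38 were tested. Of these 5 were called higher in purple grain, and 11 without purple replicate 3, against 2.87% and 5.28% of all tested genes. In the green tissue list 7 genes had no count and 34 were tested. None of these was called, and 26 were called lower without purple replicate 3, against 4.97% of all tested genes. Of 96 tested storage protein genes 18 were called lower and none higher, against 2.32% and 2.87% of all tested genes. The 56 listed genes of dividing tissue made 0.0211% to 0.0521% in white libraries and 0.0257% to 0.0528% in purple ones. Of these 39 were tested, 2 called higher and none lower. The part that these tissues play in the hormone results was not tested.

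A gene was tested with edgeR if it averaged at least 0.5 FPKM over the 6 libraries, and called if its adjusted p was under 0.05 and its absolute log2 difference at least 1. By this filter 149 of the 261 members were tested, 124 filed under abscisic acid and 21 under gibberellin. The other 112 were not tested, and 40 of them had no count in any library. Of the 124, 82 were PP2C genes that the table does not tie to abscisic acid. Of the tested members 5 were called higher in purple grain and 2 lower, against 2.87% and 2.32% of the 48492 genes tested in all. The share of all tested genes called in either direction was 5.19%. All calls filed under abscisic acid, 2 higher and 1 lower, fell on those PP2C genes. The median log2 difference (purple minus white throughout) was -0.01 over the tested members and 0.02 over all tested genes. At an unadjusted p under 0.05, 29 members were higher and 23 lower, where 14.2% and 12.6% of all tested genes were. Without purple replicate 3 the members called were 17 higher and 11 lower, against 5.28% and 4.97% of all tested genes, and the 7 genes first called were among them. The 4 genes that matched by letters only were all tested and none called, and 2 of the 11 were theirs. DESeq2, a second count test, called 26 members higher and 12 lower, against 9.41% and 6.2% of all tested genes, with the same 7 among them. Every purple library lay above every white one in 24 tested members and below in 31, against 13.3% and 19.9% of all tested genes.

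**Figure D1:**
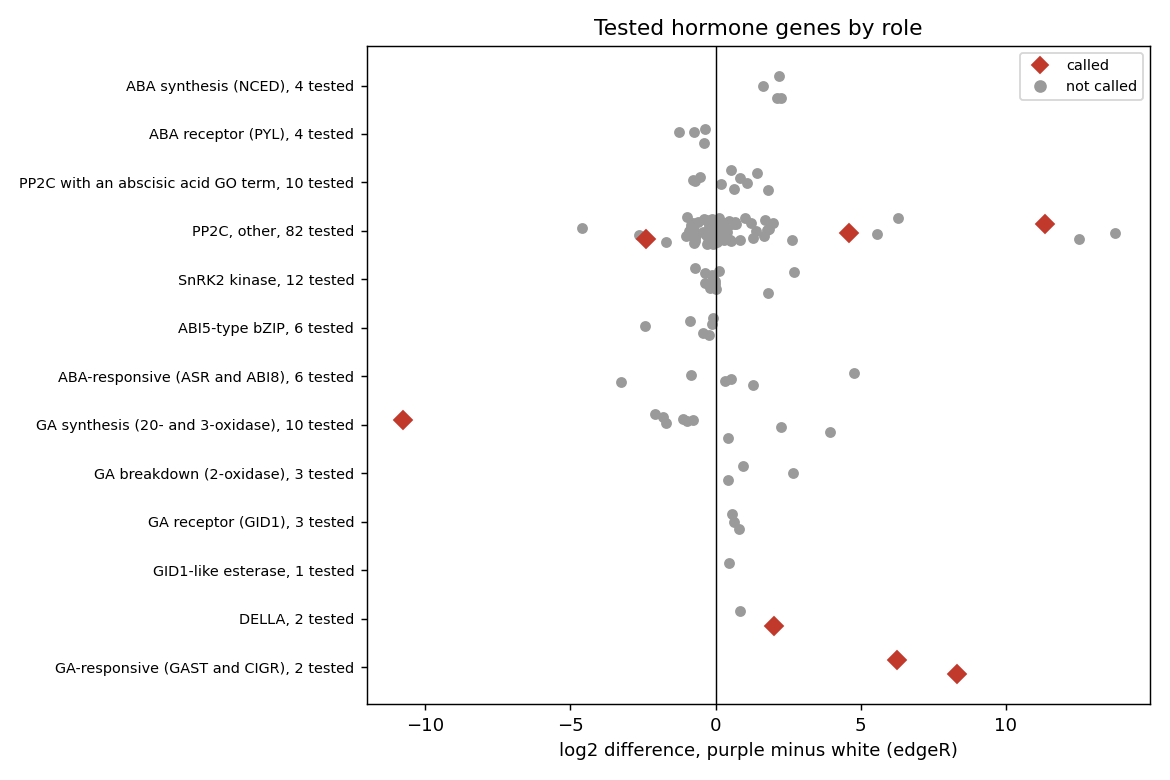
Log2 difference in purple against white grain (x axis, edgeR) for each tested abscisic acid (ABA) and gibberellin (GA) gene, by role. Red diamonds are the 7 called genes and grey circles the others; all 4 tested NCED genes lie right of 0, and all 4 tested receptors of abscisic acid lie left of it.

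The members that rose most in purple grain among the gibberellin genes were a pair of gibberellin stimulated transcript genes, whose products belong to a family of small cysteine-rich peptides. TraesCS4B02G077900 (chromosome 4B, 74908054 to 74909026) had 1.78, 0.496 and 0.0466 FPKM in white libraries against 71.5, 67.6 and 35.2 in purple libraries. TraesCS4D02G076400 (chromosome 4D, 50888586 to 50889461) had 0.492, 0 and 0 FPKM in white grain against 70.8, 51.5 and 36.3 in purple grain. Both were low or without counts in white grain and high in every purple library, with no overlap between grain types. The 4B gene was 6.26 log2 units higher (SE 1.2, adjusted p = 0.0374) and the 4D gene 8.32 log2 units higher (SE 1.53, adjusted p = 0.0341). Neither call held when white replicate 2, purple replicate 1 or purple replicate 2 was left out, and that of the 4D gene also not without white replicate 3. The highest adjusted p then was 0.119 for the 4B gene and 0.110 for the 4D gene. In a bulk sample, more cells that express a gene and more RNA per cell cannot be told apart.

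**Figure D2:**
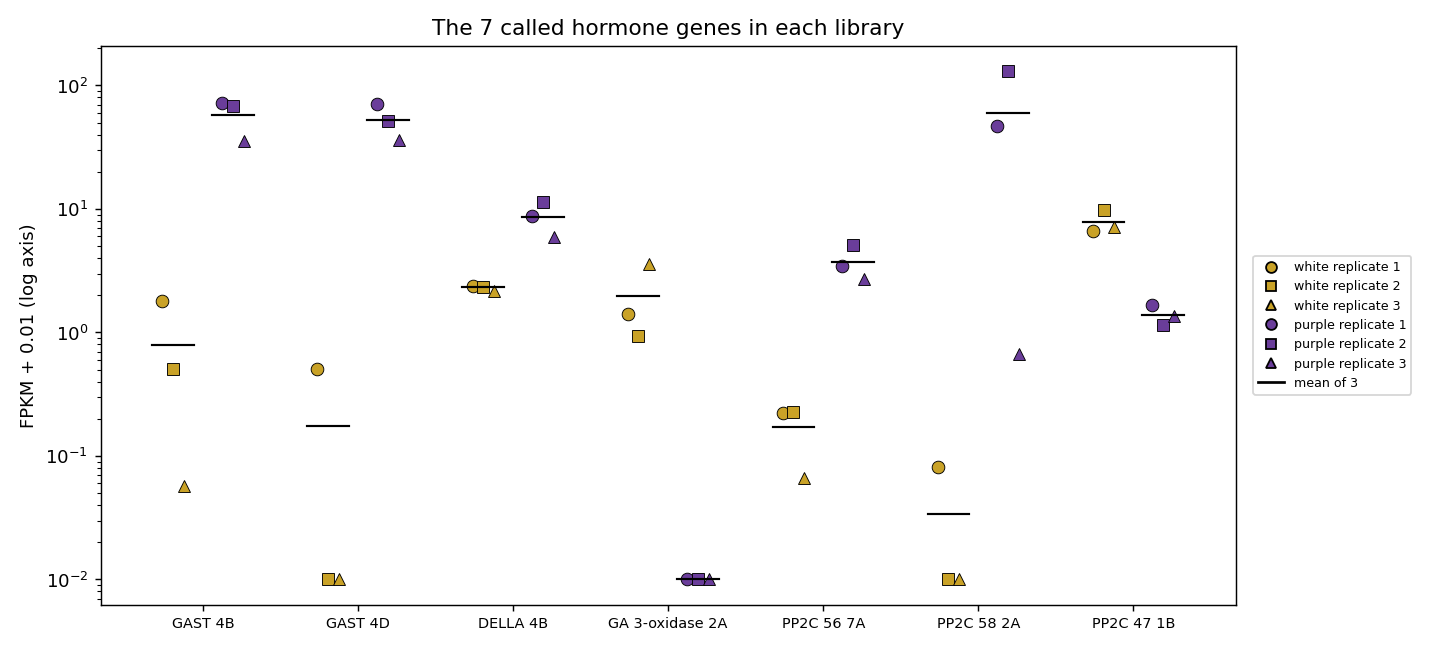
FPKM plus 0.01 (log axis) in each of the 6 libraries for the 7 called genes, with white grain in yellow, purple grain in purple, a symbol per replicate and a bar at the mean of 3. The grain types overlap in none of these genes; purple replicate 3 lies far below the other purple libraries in PP2C 58.

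The other gibberellin-responsive members are 4 genes described as chitin-inducible gibberellin-responsive protein, a type of GRAS transcription factor. None passed the filter on low values, the highest having a mean of 0.498 FPKM. In 3 of the 4 every purple library lay above every white one, and the last had no count in any library.

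DELLA proteins are the repressors that gibberellin removes. TraesCS4B02G043100 (chromosome 4B, 30861268 to 30863723) had 2.39, 2.35 and 2.17 FPKM in white grain against 8.68, 11.3 and 5.91 in purple grain. The white libraries were close to each other and all purple libraries lay above them. The gene was 2.01 log2 units higher in purple grain (SE 0.28, adjusted p = 0.0165). The adjusted p was 0.0691 without white replicate 2, 0.0691 without white replicate 3 and 0.0511 without purple replicate 2. The copy on 4A, described as Rht-A1, had 5.76, 4.98 and 3.30 FPKM in white grain against 9.38, 8.64 and 5.75 in purple grain. Its highest white library reached the lowest purple one, and its log2 difference of 0.85 (SE 0.30) did not pass the test (adjusted p = 0.136). The summed level of the DELLA members was 5.48 to 8.15 FPKM in white grain and 11.7 to 20.0 FPKM in purple grain. A further DELLA gene had no count in any library.

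The gibberellin receptor is encoded by 3 genes described as GID1 protein, all tested and none called. All 3 had log2 differences above 0, from 0.56 to 0.81. An unadjusted edgeR p under 0.05 was reached by 1 of them, and on the higher side by 14.2% of all tested genes. The one on 1D had 15.1, 16.4 and 9.65 FPKM in white grain against 29.2, 14.4 and 12.8 in purple grain, with a log2 difference of 0.56 (SE 0.37, adjusted p = 0.369). The one on 1A had 12.9, 15.8 and 7.39 FPKM in white grain against 25.9, 12.7 and 13.4 in purple grain, with a log2 difference of 0.64 (SE 0.36, adjusted p = 0.306). In both, purple replicate 1 was the highest library and the grain types overlapped. Of 23 genes described as GID1-like receptors, 12 had no count anywhere and 1 was tested. That gene, TraesCS7D02G271500, had a log2 difference of 0.46 (SE 0.38, adjusted p = 0.476).

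Among the enzymes that complete gibberellin, 10 of 21 genes were tested. Their median log2 difference was -1.05, with 7 below 0 and 3 above. At an unadjusted p under 0.05, 6 were lower and 2 higher, where 12.6% and 14.2% of all tested genes were. Only 1 was called, lower in purple grain, against 2.32% of all tested genes. The called gene, TraesCS2A02G060500 (chromosome 2A, 27275933 to 27277315), is described as gibberellin 3-beta-dioxygenase 1, the enzyme type that makes bioactive gibberellin. It had 1.40, 0.931 and 3.56 FPKM in the white libraries and no count in any purple library. With a floor of 3 counts per library it was at least 78.1-fold lower in purple grain (adjusted p = 0.0248). The call was lost without any one of white replicates 2 and 3 and purple replicates 1 and 2, where the adjusted p was 0.0559, 0.0627, 0.0522 and 0.0723. The genes with the same description on 2B and 2D, and a neighbour on 2A, had no count in either grain type.

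The most expressed genes of this group carry the description gibberellin 20-oxidase 1 and lie on the group 4 chromosomes. TraesCS4A02G234100 had 45.2, 94.3 and 20.2 FPKM in white grain against 15.7, 8.81 and 19.1 in purple grain, with a log2 difference of -1.71 (SE 0.54, adjusted p = 0.111). White replicate 2 was the highest library, and white replicate 3 lay just above purple replicate 3. The copy on 4D had 20.6, 51.7 and 8.58 FPKM in white grain against 5.83, 3.20 and 7.83 in purple grain, with a log2 difference of -2.08 (SE 0.63, adjusted p = 0.101). The copy on 4B had 21.4, 37.8 and 9.61 FPKM in white grain against 3.37, 3.13 and 10.8 in purple grain, with a log2 difference of -1.83 (SE 0.65, adjusted p = 0.138). In all 3 copies white replicate 2 was highest, and the grain types overlapped in the 4B copy.

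Gibberellin 3-beta-dioxygenase 4 was likewise read from 3 copies on group 4. TraesCS4D02G253800 had 23.3, 23.0 and 20.8 FPKM in white grain against 12.2, 6.58 and 12.7 in purple grain, with a log2 difference of -0.99 (SE 0.28, adjusted p = 0.0918). The 4A copy, TraesCS4A02G050800, had 8.38, 12.3 and 11.4 FPKM in white grain against 4.58, 3.23 and 5.91 in purple grain, with a log2 difference of -1.11 (SE 0.27, adjusted p = 0.0650). Every purple library lay below every white one in both, and in the 4B copy as well, whose adjusted p was 0.319. None of the 3 was called. Of the 10 tested genes that complete gibberellin, DESeq2 called 5 lower and 1 higher, against 6.2% and 9.41% of all tested genes. Without purple replicate 3, edgeR called 4 of the 10 lower and 0 higher, against 4.97% and 5.28% of all tested genes. The summed level of all 21 genes was 82.1 to 230 FPKM in white grain and 28.4 to 68.3 FPKM in purple grain, so that no purple library reached a white one. A pair of genes went the other way without being called by edgeR. Gibberellin 20-oxidase 1-A on 4A and 1-D on 5D, both under 3 FPKM in every library, had log2 differences of 2.25 (SE 0.88, adjusted p = 0.165) and 3.95 (SE 1.22, adjusted p = 0.106).

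**Figure D3:**
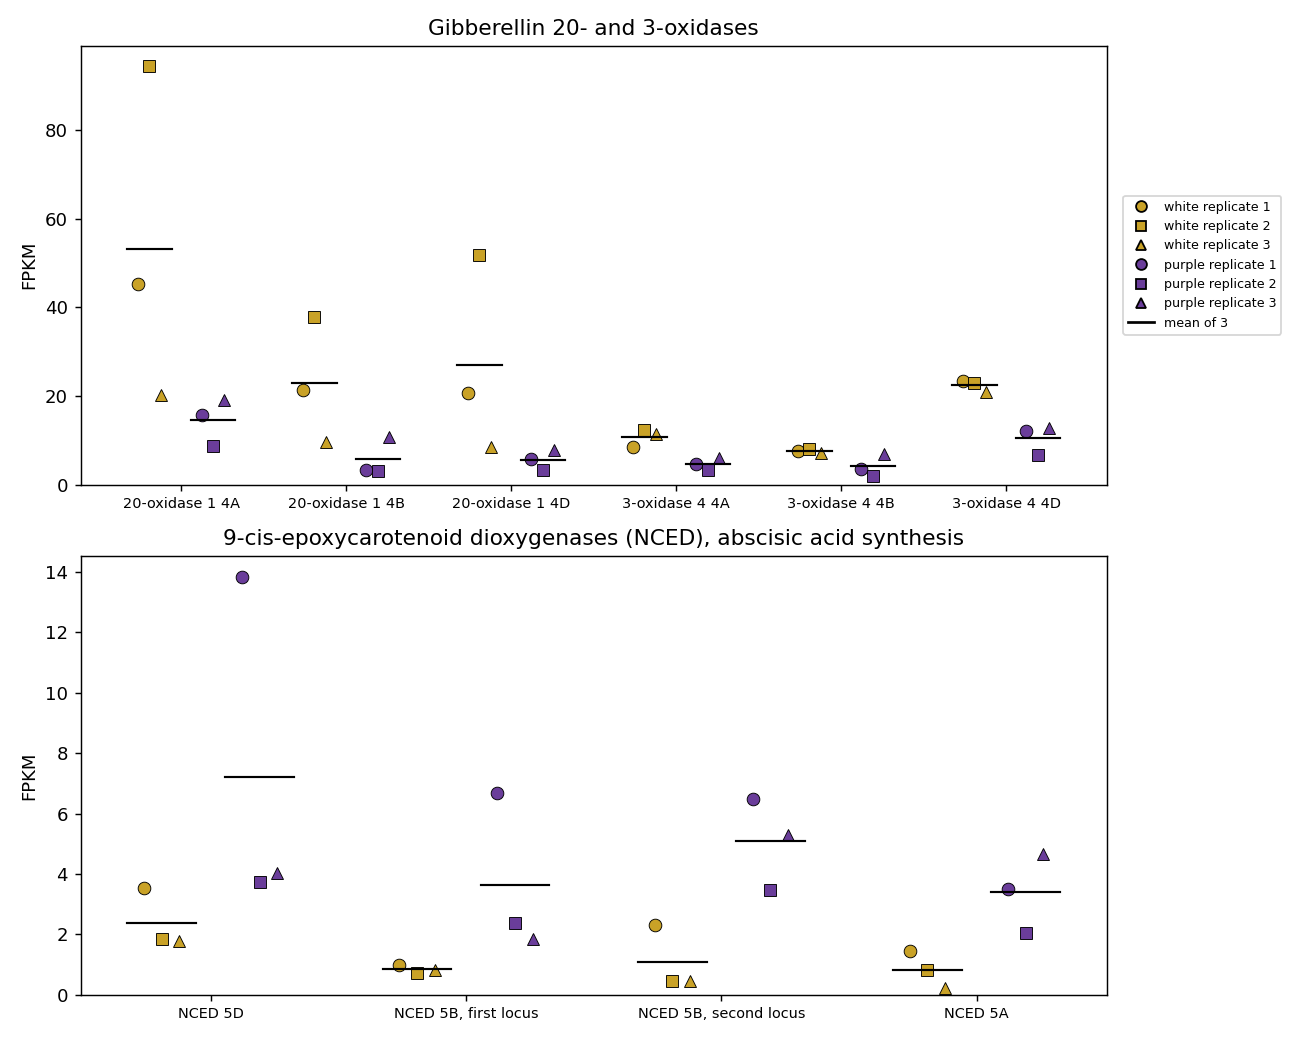
FPKM in each library for the gibberellin 20- and 3-oxidase genes of the group 4 chromosomes (top) and the 4 tested NCED genes (bottom), with a bar at the mean of 3. The oxidases are mostly lower and the NCED genes higher in the purple libraries, but none of these 10 genes was called by edgeR.

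Gibberellin 2-oxidases remove the hormone, and 3 of 9 were tested with none called. TraesCS3A02G294000 had 3.46, 1.49 and 1.57 FPKM in white grain against 8.17, 1.82 and 2.19 in purple grain, with a log2 difference of 0.94 (SE 0.69, adjusted p = 0.417). TraesCS3B02G328700 had 0.791, 0.477 and 0.121 FPKM in white grain against 6.32, 1.57 and 0.682 in purple grain, with a log2 difference of 2.67 (SE 1.00, adjusted p = 0.153). In both the highest value came from purple replicate 1, and the grain types overlapped.

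The search does not take gibberellin oxidases that the table names in short form, such as GA2ox. Of 40 such genes 16 were tested, 1 called higher and 2 lower, against 2.87% and 2.32% of all tested genes. GA2ox-A8 (TraesCS1D02G400700) had 2.65, 4.98 and 0.439 FPKM in the purple libraries and no count in white grain. With the floor of 3 counts per library it was at least 99.5-fold higher in purple grain (adjusted p = 0.0394). GA2ox-D10 (TraesCS1B02G145600) ran the opposite way, with 1.35, 1.53 and 1.5 FPKM in white grain and no count in purple grain, at least 67.1-fold lower (adjusted p = 0.00954). GA 3-oxidase 1 (TraesCS2B02G570800) had 21.5, 20.6 and 20.9 FPKM in white grain against 4.49, 4.03 and 9.15 in purple grain, and was lower in every purple library (log2 difference -1.73, SE 0.36, adjusted p = 0.0470). The calls of GA2ox-A8 and GA 3-oxidase 1 held when purple replicate 3 was left out and were lost without any other single library, while that of GA2ox-D10 held without any one library. The most expressed of these genes, GA3ox-B3 (TraesCS2B02G570900), had 26.6, 11.8 and 23.9 FPKM in white grain against 7.17, 7.20 and 30.5 in purple grain, so that purple replicate 3 was the highest library and the grain types overlapped (log2 difference -0.40, SE 0.68, adjusted p = 0.740).

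Earlier steps of gibberellin synthesis, from ent-copalyl diphosphate synthase to ent-kaurenoic acid oxidase, were held by 58 genes, of which 15 were tested and none called, with a median log2 difference of 0.01. The highest of them, an ent-kaurenoic acid oxidase (TraesCS4A02G460100), had 18.3, 2.6 and 1.77 FPKM in white grain against 16.1, 13.3 and 19.2 in purple grain (adjusted p = 0.468). White replicate 1 was here at the purple level. Of GID2, the F-box protein that acts on DELLA, 3 of 3 genes were tested and none called. The highest, TraesCS3D02G056100, had 6.28, 5.05 and 1.82 FPKM in white grain against 6.02, 1.27 and 3.81 in purple grain, with overlapping grain types. Of GAMYB, a factor known for gibberellin responses in the aleurone, 5 of 14 were tested and none called. Its highest gene, TraesCS3A02G336500, had 7.35, 6.84 and 11 FPKM in white grain against 8.05, 6.46 and 7.95 in purple grain, again overlapping.

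Abscisic acid synthesis was represented by 5 NCED genes, the enzyme step that commits carotenoids to the hormone. TraesCS5D02G038800 had 3.53, 1.85 and 1.79 FPKM in white grain against 13.8, 3.74 and 4.03 in purple grain. TraesCS5B02G375900 had 2.31, 0.445 and 0.466 FPKM in white grain against 6.49, 3.46 and 5.28 in purple grain. In these and in the other tested pair, TraesCS5B02G029300 and TraesCS5A02G374000, every purple library lay above every white one. The log2 differences were 1.64 (SE 0.61), 2.25 (SE 0.76), 2.17 (SE 0.53) and 2.11 (SE 0.70) in that order. All 4 had an unadjusted p under 0.05 and none was called, with adjusted p-values of 0.149, 0.125, 0.0650 and 0.121. DESeq2 called all 4 higher, with adjusted p-values of 0.0418, 0.0149, 0.00119 and 0.0191, against 9.41% of all tested genes. Of all tested genes 14.2% were higher at an unadjusted edgeR p under 0.05. In 13.3% every purple library lay above every white one. With edgeR TraesCS5B02G029300 was called without purple replicate 3 (adjusted p = 0.0336). It overlaps the fifth gene, on the opposite strand, by 1704 bases, and that gene had no count. Summed over the 5 genes, white grain had 3.29 to 8.26 FPKM and purple grain 11.6 to 30.5 FPKM.

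Zeaxanthin epoxidase, which acts before NCED, and xanthoxin dehydrogenase, which acts on its product, were held by 5 and 4 genes. Of each 3 were tested and none called, all with log2 differences above 0 and medians of 0.44 and 0.49. The highest, the zeaxanthin epoxidase TraesCS2D02G314900, had 3.90, 2.47 and 2.90 FPKM in white grain against 5.25, 3.36 and 3.39 in purple grain (adjusted p = 0.400). Aldehyde oxidase, the last step of synthesis, was held by 19 genes. Of these 8 were tested and 1 called lower, against 2.32% of all tested genes. The called aldehyde oxidase-like gene, TraesCS7B02G419000, had 1.30, 1.24 and 0.584 FPKM in white grain against 0.226, 0.276 and 0.226 in purple grain (log2 difference -1.99, SE 0.39, adjusted p = 0.0393). All purple libraries lay below the white ones. The highest of the 8, TraesCS2A02G246300, had a log2 difference of -0.11 (SE 0.22, adjusted p = 0.773). The call of TraesCS7B02G419000 was lost without any one library except white replicate 3, with adjusted p-values of 0.0557 to 0.124.

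Breakdown of abscisic acid could barely be measured among the genes found by the search. The 4 described as abscisic acid 8′-hydroxylase averaged at most 0.0571 FPKM, none was tested, and 2 had no count. The table names 6 more in short form, all tested and none called, 5 of them with log2 differences above 0 (median 0.56). The highest, TraesCS5B02G236500, had 3.93, 6.41 and 1.84 FPKM in white grain against 4.13, 3.11 and 2.48 in purple grain, with overlapping grain types (log2 difference -0.18, SE 0.42, adjusted p = 0.810). In TraesCS6B02G298500, named for its values, every purple library lay above every white one, with 0.211, 0.343 and 0.444 FPKM in white grain against 0.699, 1.30 and 1.12 in purple grain. Its log2 difference was 1.75 (SE 0.45), with an adjusted p of 0.0738 by edgeR and 0.00641 by DESeq2.

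Of 7 receptor genes (PYL), 4 were tested and none called, all with log2 differences below 0 (median -0.58). At an unadjusted p under 0.05, 2 of them were lower, where 12.6% of all tested genes were. PYL2 on 7B had 14, 10.3 and 9.81 FPKM in white grain against 6.07, 5.08 and 13.5 in purple grain, with a log2 difference of -0.37 (SE 0.44, adjusted p = 0.622). PYL2 on 7D had 10.9, 11.1 and 7.71 FPKM in white grain against 4.93, 4.78 and 6.62 in purple grain, with a log2 difference of -0.75 (SE 0.26, adjusted p = 0.129). Purple replicate 3 was at the white level in the 7B gene, while the grain types did not overlap in the 7D gene.

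Protein phosphatases 2C were the largest family, with 142 genes, but only 20 of them carry a GO term in the table that names abscisic acid. Of those 20 genes 10 were tested and none called, with a median log2 difference of 0.58. The highest, PP2C 6 on 3D (TraesCS3D02G212100), had 10.9, 11.6 and 9.10 FPKM in white grain against 12.1, 14.3 and 7.29 in purple grain, with a log2 difference of 0.20 (SE 0.28, adjusted p = 0.684). PP2C 30 on 4D (TraesCS4D02G210900) had 6.71, 16.4 and 3.69 FPKM in white grain against 11.6, 7.24 and 15.9 in purple grain, with a log2 difference of 0.55 (SE 0.52, adjusted p = 0.529). Grain types overlapped in both genes, and in PP2C 30 white replicate 2 and purple replicate 3 were the highest libraries.

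Of the 122 PP2C genes without such a term, 82 were tested, with a median log2 difference of -0.01. Of these 2 were called higher and 1 lower, against 2.87% and 2.32% of all tested genes. The table does not tie these 122 to abscisic acid, and many plant PP2C proteins act elsewhere. PP2C 47 on 1B (TraesCS1B02G095600, 99592301 to 99594876) had 6.61, 9.83 and 7.10 FPKM in white grain against 1.65, 1.14 and 1.34 in purple grain. It was lower in every purple library, with a log2 difference of -2.39 (SE 0.23, adjusted p = 0.00634), and was the only called member whose call held when any one library was left out, at adjusted p-values up to 0.0334. The copy on 1A (TraesCS1A02G077500) had 5.59, 8.59 and 5.17 FPKM in white grain against 13.9, 10.2 and 11.3 in purple grain. It lay above white grain in every purple library, with a log2 difference of 1.00 that fell just short of the threshold on size (SE 0.21, adjusted p = 0.0483). The copy on 1D had 6.30, 10.9 and 7.26 FPKM in white grain against 11.2, 8.18 and 9.77 in purple grain, with overlapping grain types (adjusted p = 0.280). Reads of such copies can be exchanged in alignment, so the values of single copies are uncertain.

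Genes around PP2C 47 on 1B were lower in purple grain too. Of the 10 tested genes on each side, 12 of 20 were called lower and none higher, with a median log2 difference of -3.36, in a stretch from 94004207 to 104767948. Around GA2ox-D10, on the same chromosome, 14 of 20 neighbours were called lower, with a median of -3.15, between 195590716 and 209134742. By contrast, 20 neighbours of each of the other 6 called members held at most 1 call in a direction. Whether these stretches of 1B differ between the wheats in sequence or copy number was not tested.

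PP2C 56 on 7A (TraesCS7A02G350600, 513537419 to 513542505) had 0.213, 0.219 and 0.0568 FPKM in white grain against 3.42, 5.05 and 2.68 in purple grain. All purple libraries were far above the white ones, with a log2 difference of 4.60 (SE 0.60, adjusted p = 0.0129). The adjusted p was 0.0563 without white replicate 2 and 0.0553 without purple replicate 2.

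PP2C 58 on 2A (TraesCS2A02G222700, 214423823 to 214425185) had 0.0713, 0 and 0 FPKM in white grain against 47.4, 130.1 and 0.664 in purple grain. Purple replicates 1 and 2 carried nearly all of its signal, and purple replicate 3 lay under 1 FPKM, though above every white library. Its log2 difference was 11.33 (SE 2.37, adjusted p = 0.0474), and of the 6 fits that leave out 1 library only the one without purple replicate 3 kept the call (adjusted p = 0.0120). Without one of the others the adjusted p was 0.0956 to 0.149.

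Genes of the same or a similar description followed that split between purple libraries, and apart from PP2C 59 on 7D they are named here because of their values. PP2C 62 on 2B (TraesCS2B02G248200) had 0.964, 0.384 and 0.115 FPKM in white grain against 18.2, 47.1 and 0.892 in purple grain, and PP2C 62 on 2D (TraesCS2D02G228700) had no count in white grain and 10.0, 33.7 and 0.177 FPKM in purple grain. PP2C 59 on 7D (TraesCS7D02G417600), the most expressed PP2C, had 22.9, 7.83 and 17.5 FPKM in white grain against 69.4, 110.4 and 5.38 in purple grain. In all of them purple replicate 2 was highest, purple replicate 1 next and purple replicate 3 far below both. None was called over all libraries (adjusted p = 0.0826, 0.0842 and 0.254), and all 3 were called without purple replicate 3 (adjusted p = 0.0246, 0.0186 and 0.0473). The genes on 2B and 2D each overlap a PP2C gene on the opposite strand, by 1132 and 1420 bases, and with no strand setting given the partners cannot be told apart. Embryo and aleurone genes were high in the same pair of purple libraries, and their part in this split was not tested.

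**Figure D4:**
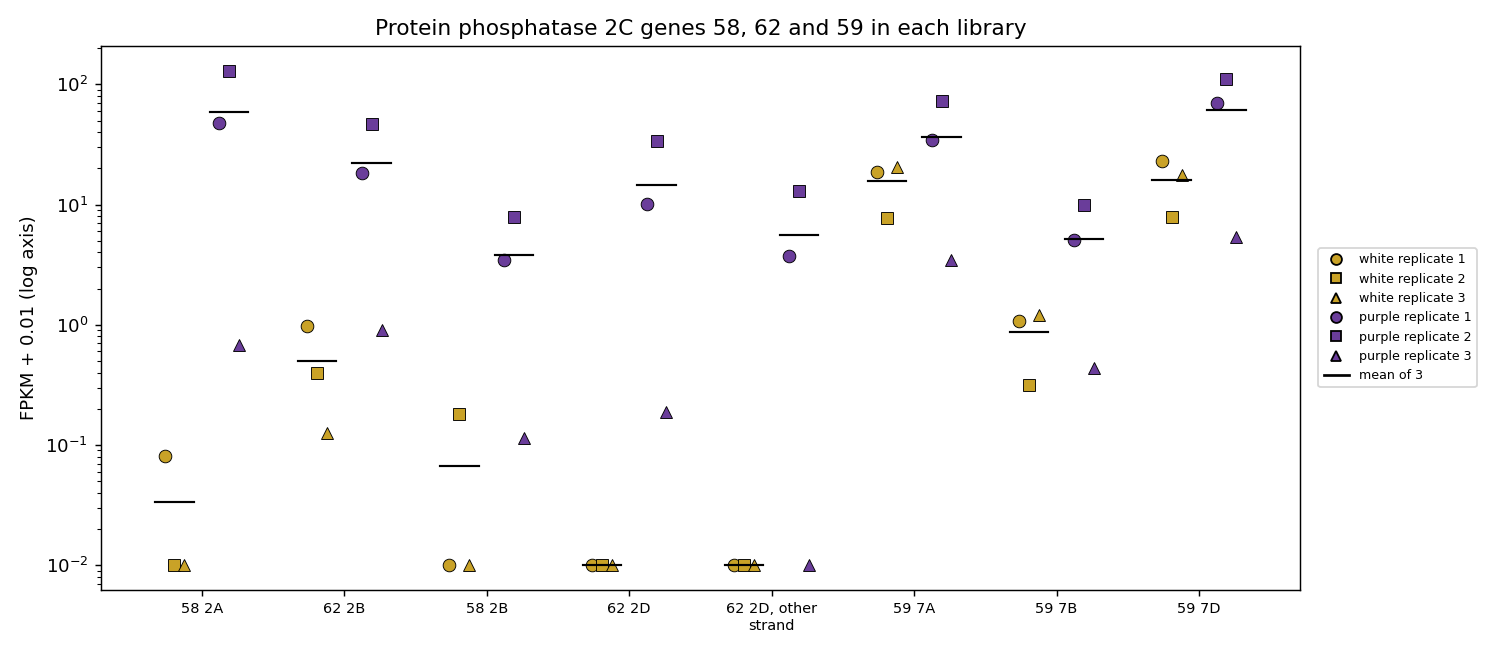
FPKM plus 0.01 (log axis) in each library for 8 PP2C genes described as 58, 62 or 59, with a bar at the mean of 3. Purple replicates 1 and 2 lie above all white libraries in each gene, while purple replicate 3 reaches 5.38 FPKM at most.

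The SnRK2 kinases, which PP2C phosphatases hold inactive, numbered 16. Of these 12 were tested and none called, with a median log2 difference of -0.05. SAPK2 on 2D had 55.1, 68.4 and 64.2 FPKM in white grain against 50.3, 59.9 and 60.8 in purple grain, with a log2 difference of -0.02 (SE 0.20, adjusted p = 0.960). SAPK2 on 2B had 54.5, 65.2 and 57.6 FPKM in white grain against 49.2, 55.8 and 49.8 in purple grain, with a log2 difference of -0.08 (SE 0.19, adjusted p = 0.808). These were the highest levels of the group, and grain types overlapped in both. A pair of kinases, named for their values, stood apart. The abscisic acid-inducible kinase on 2A (TraesCS2A02G493800) had 2.32, 1.39 and 1.44 FPKM in white grain against 11.9, 17.1 and 3.10 in purple grain (log2 difference 2.71, SE 0.65, adjusted p = 0.0634). SAPK10 on 4D (TraesCS4D02G078100) had 3.81, 4.28 and 4.44 FPKM in white grain against 11.4, 22.7 and 6.25 in purple grain (log2 difference 1.80, SE 0.46, adjusted p = 0.0741). All purple libraries lay above white grain in both, which were called without purple replicate 3 (adjusted p = 0.0150 and 0.0243).

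The ABI5-type bZIP factors, on which these kinases act, numbered 7. Of these 6 were tested and none called, all with log2 differences below 0 (median -0.32). At an unadjusted p under 0.05, 2 were lower, where 12.6% of all tested genes were. The search does not take a gene described as TaABI5 (TraesCS3D02G364900), which lay on the other side of 0 with a log2 difference of 0.78 (SE 0.47, adjusted p = 0.329). It had 28.3, 27.6 and 10.6 FPKM in white libraries and 42.4, 44.7 and 19.3 in purple libraries, and the grain types overlapped. ABI5-like 5 on 7A (TraesCS7A02G170600) had 22.3, 24.9 and 19.1 FPKM in white grain against 14, 8.48 and 11.3 in purple grain, with a log2 difference of -0.87 (SE 0.22, adjusted p = 0.0746). The copy on 7D (TraesCS7D02G171300) had 13.2, 7.99 and 8.30 FPKM in white grain against 13.9, 5.27 and 5.18 in purple grain, with a log2 difference of -0.21 (SE 0.47, adjusted p = 0.801). The grain types were apart in the 7A gene and overlapped in the 7D gene. Among 27 bZIP genes outside the search, TaABI5 included, 24 were tested and 1 was called lower, against 2.32% of all tested genes. None of the 27 descriptions holds the word abscisic. The called gene, TraesCS2B02G167900, is described only as a bZIP transcription factor. It had 27.4, 21.6 and 19.1 FPKM in white grain against 7.42, 5.49 and 6.04 in purple grain, all purple libraries lower (log2 difference -1.76, SE 0.26, adjusted p = 0.0178). Its adjusted p was 0.0821 without purple replicate 2. The most expressed of the 27, bZIP 60 on 7B (TraesCS7B02G299200), had 33.7, 44.7 and 54.0 FPKM in white grain against 22.7, 16.9 and 27.0 in purple grain, lower in every purple library without passing the test (log2 difference -0.88, SE 0.27, adjusted p = 0.104).

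Genes filed as abscisic stress-ripening or ABI8 numbered 11, of which 6 were tested and none called. The ABI8 homologue on 3D (TraesCS3D02G164400) had 5.92, 8.00 and 5.15 FPKM in white grain against 6.94, 7.15 and 7.61 in purple grain, with a log2 difference of 0.31 (SE 0.19, adjusted p = 0.342). The abscisic stress-ripening gene on 4B (TraesCS4B02G112000) had 2.6, 4.12 and 2.58 FPKM in white grain against 0.487, 0.328 and 3.91 in purple grain, with a log2 difference of -0.83 (SE 0.93, adjusted p = 0.598). It was low in purple replicates 1 and 2 alone, and was called lower without purple replicate 3 (adjusted p = 0.0225). The abscisic stress-ripening gene on 3A (TraesCS3A02G510100), named for its values, had 0.0888, 0.110 and 0 FPKM in white grain against 1.52, 1.72 and 2.23 in purple grain, every purple library higher (log2 difference 4.78, SE 1.06, adjusted p = 0.0542).

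Seed dormancy factors outside the search were also looked up. Of 7 genes of the Mother of FT and TFL1 (MFT) and seed dormancy protein types, all were tested and none called. Log2 differences were above 0 in 5 and below in 2 (median 1.22). DESeq2 called 3 higher and 1 lower, against 9.41% and 6.2% of all tested genes. Mother of FT and TFL1 on 3A (TraesCS3A02G006600), known in wheat as a dormancy gene, had 18.1, 72.5 and 23.0 FPKM in white grain against 279.4, 189.7 and 79.2 in purple grain. Purple libraries were all higher, purple replicate 3 only just above white replicate 2, and the log2 difference of 2.45 (SE 0.63) did not pass the test (adjusted p = 0.0742). Of the others, named for their values, MFT-3B-1 had a log2 difference of 3.25 (SE 0.71, adjusted p = 0.0519), MFT-3B-2 one of -1.16 (SE 0.67, adjusted p = 0.313) and the seed dormancy protein on 2D one of -2.06 (SE 0.80, adjusted p = 0.163). VIVIPAROUS1, a partner of ABI5 in the seed, was tested in 3 of 3 genes with none called, all with log2 differences above 0 (median 0.97). It had 1 copy called higher by DESeq2, and 1 by edgeR without purple replicate 3, against 9.41% and 5.28% of all tested genes. Its highest copy, on 3B (TraesCS3B02G452200), had 6.0, 11.6 and 6.98 FPKM in white grain against 13.2, 15.1 and 9.78 in purple grain, with overlapping grain types (log2 difference 0.77, SE 0.26, adjusted p = 0.124).

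**Figure D5:**
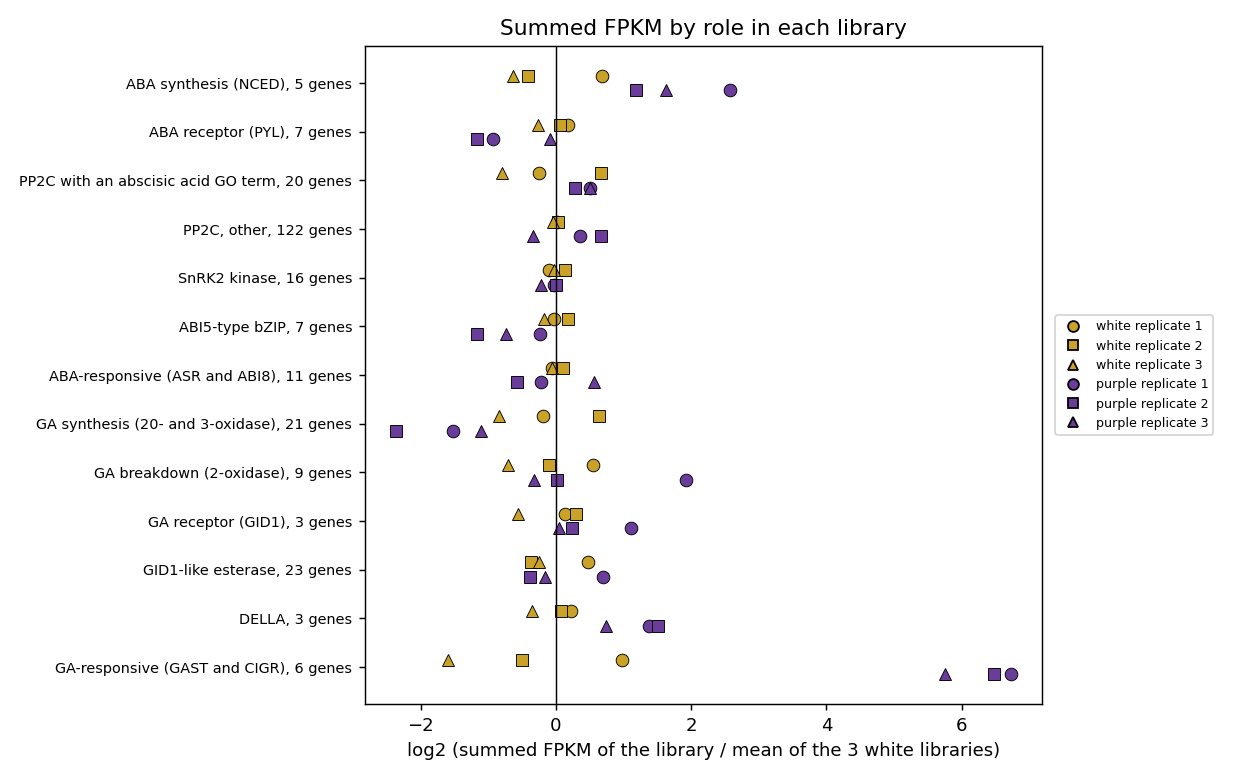
Log2 ratio of each library's FPKM summed over all genes of a role to the mean of the 3 white libraries (x axis), with white grain in yellow, purple grain in purple and a symbol per replicate. Grain types are apart for NCED, gibberellin synthesis, DELLA and gibberellin-responsive genes, and for ABI5-type factors only as long as TaABI5 is left out: with it white grain sums to 56.1 to 85.3 FPKM and purple grain to 49.9 to 85.9 FPKM.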

How the data were processed

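Members and gene lists were chosen with earlier results of these data known. The authors' deposited table gives whole-number counts and FPKM per gene and library, per the file headers, and a count of 0 is written there as 0.0001 FPKM, read here as 0. Per the submitters' processing notes, cutadapt, HISAT2 and StringTie were used. Versions, strand setting and genome build are not given in the sources used here, and coordinates are as in the table. The table's 12 further measurement columns, from 6 libraries, match no labelled sample and were not used. Counts were tested with edgeR 4.0.16 in R 4.3.3 (TMM scaling, quasi-likelihood test, Benjamini-Hochberg adjustment over all 48492 tested genes, no replicate block). SE is the log2 difference divided by the square root of F. Since separate plants are not stated, the p-values cover the spread between the libraries alone, which may be technical. Depth and counting noise were checked, and no pair of libraries matched within counting noise. Counts were simulated for purple against white over 48492 genes, with 50 genes changed at each fold. Of these, 2% of 2-fold, 52% of 4-fold, 82% of 8-fold and 98% of 16-fold changes were called, and 10 unchanged genes besides. Far fewer genes were changed there than were called in these data, and no library was made to stand apart. The rates in the real test may therefore differ. Alternatives were DESeq2 1.42.0, limma 3.58.1 on log2(FPKM + 1) and log2(FPKM + 0.1), other scalings and filters, a replicate block and leaving out each library. The text names, per role, the called genes, the 2 tested genes with the highest mean FPKM and copies of called genes, and for related lists the called and highest genes. TraesCS5B02G029300, TraesCS5A02G374000, the gibberellin 3-beta-dioxygenase 4 copies other than 4D, the 4B and 4D copies of gibberellin 20-oxidase 1, 20-oxidases 1-A and 1-D, the PP2C 58, 59 and 62 genes other than PP2C 58 on 2A and PP2C 59 on 7D, SAPK10, the 2A kinase, the 3A stress-ripening gene, TraesCS6B02G298500, TaABI5, MFT-3B-1, MFT-3B-2 and the 2D seed dormancy protein were named after their values were seen.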

Additional observations from a re-analysis of the deposited data

How the results depend on the processing

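The members called higher, 5 in all, were 26 by DESeq2 and 12 with the replicate block, and ranged from 0 (without white replicate 2, and without purple replicate 2) to 17 (without purple replicate 3) when 1 library was left out. The members called lower, 2 in all, were 1 with a filter of at least 1 FPKM, 12 by DESeq2, 5 and 7 by limma on log2(FPKM + 1) and log2(FPKM + 0.1), 1 with the replicate block, and 1 to 11 when 1 library was left out. Over all tested genes the 2518 calls were 7569 by DESeq2 and 3862 by limma on log2(FPKM + 0.1), and 580 to 4973 when 1 library was left out. No called gene named in the text changed direction. Genes that were not called did when 1 library was left out, with log2 differences from -0.79 to 0.16 for TraesCS7D02G171300, -0.014 to 1.56 for TraesCS3A02G294000, -0.029 to 0.44 for TraesCS3D02G212100, -0.066 to 0.097 for TraesCS2D02G170600 (0.0054 with a filter of at least 1 FPKM), -0.52 to 0.18 for TraesCS5B02G236500, -0.26 to 0.19 for TraesCS3A02G336500, -0.65 to 0.32 for TraesCS3D02G056100 and -0.31 to 0.010 for TraesCS2A02G246300. The cause was not tested. Same-numbered libraries of the grain types correlated at 0.183, 0.00657 and 0.336 in their deviations, and white replicate 2 correlated best with purple replicate 1, so the numbers were not taken to pair them. Scaling by library totals moved the median of all genes from 0.02 to -0.11 and the share of calls that were higher from 55.2% to 46.7%, and the member calls stayed at 5 and 2. Over the alternatives, 12 called genes kept their call in 131 results and lost it in 46. The 33 genes not called stayed so in 463 with the same direction, changed direction in 14 and gained a call in 18. Of the 15 alternatives counted, 1 dropped the minimum log2 difference, and it could neither remove a call nor change a direction. With 3 libraries a group and a common coefficient of variation of 0.488 in these data, most of the simulated 2-fold changes were not called.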
